A study of Mus musculus with 6 samples.

Results

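The S100 genes encode a family of small proteins, most of which bind calcium. Of these genes, 8 were followed in alveolar macrophages (AMs) of CD44+/+ and CD44-/- mice: S100a1, S100a4, S100a6, S100a8, S100a9, S100a10, S100a11 and S100a13. They were chosen by name, as rows of a table of 24341 genes, and each of the 8 was expressed well enough to be tested. The table held 9 further S100 genes. AMs are the macrophages of the lung airspaces, and CD44 is the surface receptor with which they bind hyaluronan, a sugar polymer of the extracellular matrix. Cells were collected by bronchoalveolar lavage (BAL) from female C57BL/6 mice aged 6 to 10 weeks, with red blood cells lysed, and RNA was sequenced in 3 samples of CD44+/+ and 3 samples of CD44-/- AMs from untreated mice. Per the study's methods each sample was a pool of mice, with pools of unequal size, so replicate error is the spread between pools. The CD44-/- genotype is carried by all cells of these mice and not by AMs alone, and the BAL cells were not sorted.

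S100 proteins fold around a pair of loops of the EF-hand type, which bind calcium in most of the family. Most S100 proteins work as dimers that change shape when calcium binds and then dock onto a partner protein. Inside the cell they act on annexins, myosin and other membrane and cytoskeletal proteins. Some are also released and act as alarm signals on receptors such as RAGE and TLR4. S100A8 and S100A9 pair to form calprotectin, which is best known as a major cytosolic protein of neutrophils and of inflammatory monocytes.

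None of the 8 genes passed the test for a difference between the genotypes in the comparison of all 6 samples, which 0.111% of the 10800 genes tested passed. The genes fell into 2 kinds by their spread between samples of the same genotype. S100a10, S100a11, S100a1 and S100a13 were abundant, with a spread like that of most genes, whereas S100a4, S100a6, S100a8 and S100a9 varied more between samples of the same genotype than nearly all other genes. In 2 of these 4, the result of the test turned on a single sample: S100a9 was lower in CD44-/- AMs once CD44+/+ replicate 1 was left out (0.333% of all genes then passed), and S100a4 was higher in CD44-/- AMs once CD44-/- replicate 1 was left out (0.204% then passed).

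Levels are given as deposited in FPKM, the fragments counted for a transcript after scaling by its length and by the mapped fragments of the sample. Summed FPKM over all genes lay between 487901 and 504182 in the 6 samples, and depths of the other samples were 0.813 to 1.05 times the depth of CD44+/+ replicate 1, while absolute depth is unknown. Cd44, the targeted gene, was 527 to 540 FPKM in CD44+/+ AMs and 51.4 to 54.7 FPKM in CD44-/- AMs, and no library went against its labelled genotype. Of 13 marker genes of AMs, 11 were in the table, and each of them was at 134 FPKM (Pparg) or higher in every sample. Among 17 neutrophil markers in the table, Mpo, Elane, Camp and Ngp, which encode granule proteins, were listed at 0 in every sample, while Ltf (15.2 to 87.3 FPKM), Mmp8 (22.3 to 34.8 FPKM), Trem1 (20.5 to 26.6 FPKM) and Csf3r (9.32 to 15.4 FPKM) were present in every sample.

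All 8 genes lie on chromosome 3 of mm10 (GRCm38). S100a1 (90511034 to 90514330, minus strand), S100a13 (90514435 to 90524581, plus strand), S100a4 (90603770 to 90606045, plus strand), S100a6 (90612894 to 90614414, plus strand), S100a8 (90669071 to 90670034, plus strand) and S100a9 (90692630 to 90695721, minus strand) sit in a block of 185 kb. S100a11 (93520496 to 93526288, plus strand) and S100a10 (93555117 to 93564645, plus strand) follow 2.82 Mb farther along. Starts of S100a1 and S100a13 are 105 bases apart on opposite strands. S100a4 and S100a6 are 6848 bases apart, with S100a5 between them, and S100a8 and S100a9 are 22595 bases apart. The table holds 14 S100 genes of this chromosome.

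Position within the block did not sort the genes by level. S100a13 averaged 82.1 FPKM over the 6 samples, but its neighbours S100a14, at 0.708 FPKM, and S100a16, at 0.491 FPKM, were barely expressed. S100a5 was listed above 0 in CD44+/+ replicate 2 alone, at 0.214 FPKM, although S100a4 and S100a6 on either side of it averaged 42.8 and 42.2 FPKM. S100a3 was listed above 0 in CD44-/- replicate 3 alone, at 0.1 FPKM. S100a2, S100a7a and, on chromosome 13, S100z were listed at 0 in every sample. S100b on chromosome 10, a gene known from glia, reached at most 0.0739 FPKM. The deposited position of S100g, the gene of calbindin-D9k, on chromosome X spans 162407200 to 163352564, far beyond the annotated gene, so its 0.310 to 1.76 FPKM are uncertain. Of these 9 further genes only S100g and S100a14 had a mean of at least 0.5 FPKM and were tested, and neither passed the test between the genotypes (limma log2 fold change 0.66, adjusted p = 0.872, and 0.20, adjusted p = 0.956).

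**Figure D1:**
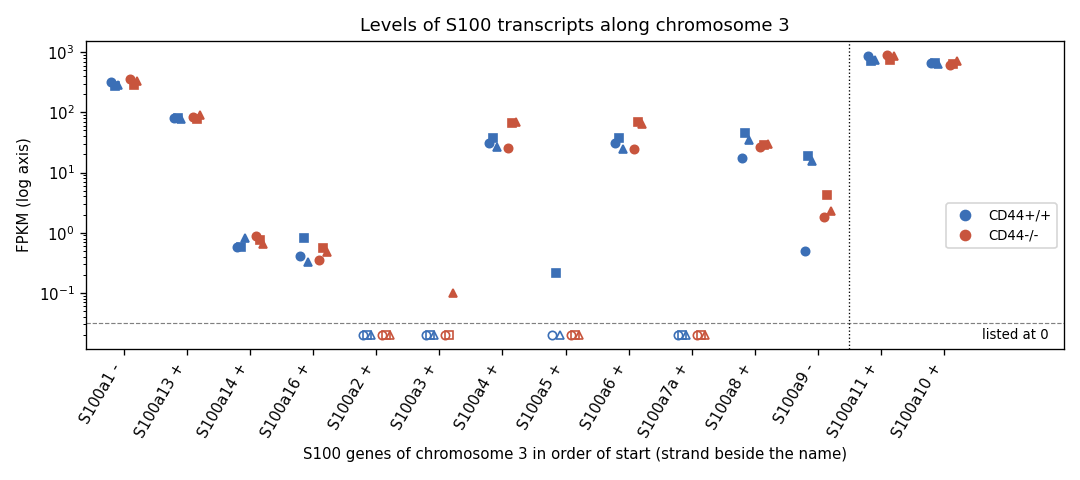
FPKM of the S100 genes of chromosome 3 in the 6 samples on a log axis, with genes in order of their start, the strand beside each name and the gap before S100a11 as a dotted line. Circles, squares and triangles are replicates 1, 2 and 3, and open symbols under the dashed line are values listed at 0. S100a13 stands next to S100a14 at 0.708 FPKM, and S100a5 lies between S100a4 and S100a6 with 5 of 6 values at 0.

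Together the 8 transcripts made up 0.374% to 0.430% of the summed FPKM of a sample. The order of the mean levels was S100a11, S100a10, S100a1, S100a13, S100a4, S100a6, S100a8 and S100a9, which ranked 54, 78, 240, 990, 1950, 1981, 2693 and 6960 in the whole table. Down to S100a4, all values of a gene lay above all values of the next gene within each genotype. S100a4 and S100a6 overlapped in both genotypes, and so did S100a6 and S100a8. S100a8 and S100a9 overlapped in CD44+/+ AMs and were apart in CD44-/- AMs. S100 mRNAs are short, and the correction for length is least sure for short transcripts, so small differences between genes in this order are uncertain.

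S100a10 and S100a11 had the highest levels. S100A10 binds annexin A2 at the plasma membrane and serves there as a docking site for plasminogen. S100a10 was at 654, 674 and 643 FPKM in CD44+/+ AMs and at 618, 648 and 715 FPKM in CD44-/- AMs. Lowest and highest values both came from CD44-/- AMs, so the genotypes overlapped, with means of 657 ± 15.7 and 660 ± 49.7 FPKM (SD, n = 3 each). The log2 fold change of CD44-/- over CD44+/+ was 0.00 (95% interval -0.14 to 0.15, limma adjusted p = 0.996), and it turned to -0.01 after median-ratio scaling.

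S100A11 binds annexin A1 and takes part in membrane repair and growth control. S100a11 was at 868, 718 and 737 FPKM in CD44+/+ AMs and at 912, 747 and 866 FPKM in CD44-/- AMs, with means of 774 ± 81.7 and 842 ± 85.1 FPKM (SD, n = 3 each). CD44+/+ replicate 1 lay above 2 of the CD44-/- samples. Its log2 fold change was 0.12 (95% interval -0.09 to 0.33, limma adjusted p = 0.890). A processed pseudogene, S100a11-ps on chromosome 12, is annotated and is not a row of the table, so reads shared with it could have been counted for S100a11.

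S100A1 is best known from heart muscle, where it acts on calcium release and uptake, and S100A13 takes part in the release of proteins that lack a signal peptide. S100a1 was at 314, 277 and 280 FPKM in CD44+/+ AMs and at 355, 284 and 330 FPKM in CD44-/- AMs. CD44+/+ replicate 1 lay above CD44-/- replicate 2, so the genotypes overlapped, with means of 290 ± 20.6 and 323 ± 36.0 FPKM (SD, n = 3 each). Its log2 fold change was 0.15 (95% interval -0.05 to 0.35, limma adjusted p = 0.799). S100a13 was at 82.0, 80.7 and 78.2 FPKM in CD44+/+ AMs and at 82.2, 78.1 and 91.6 FPKM in CD44-/- AMs. All but the 91.6 FPKM of CD44-/- replicate 3 lay within a few FPKM of each other, and the log2 fold change was 0.06 (95% interval -0.09 to 0.21, limma adjusted p = 0.939). Between same-numbered samples, S100a1 and S100a11 were higher in the CD44-/- sample in 3 of 3 pairs, and 29.8% of all genes had the same direction in all 3 pairs. With the replicate number as a block neither passed the test (limma adjusted p = 0.445 for S100a1 and 0.570 for S100a11). S100a1 was 3.43 to 4.32 times as high as its neighbour S100a13 within a sample.

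These 4 genes set narrow limits on a genotype difference. Their 95% intervals reached from -0.14 to 0.35 on the log2 scale. The residual SD, the spread within a genotype on the log2 scale, was 0.08 for S100a10, 0.09 for S100a13, 0.14 for S100a1 and 0.15 for S100a11, against a median of 0.11 over all genes tested.

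**Figure D2:**
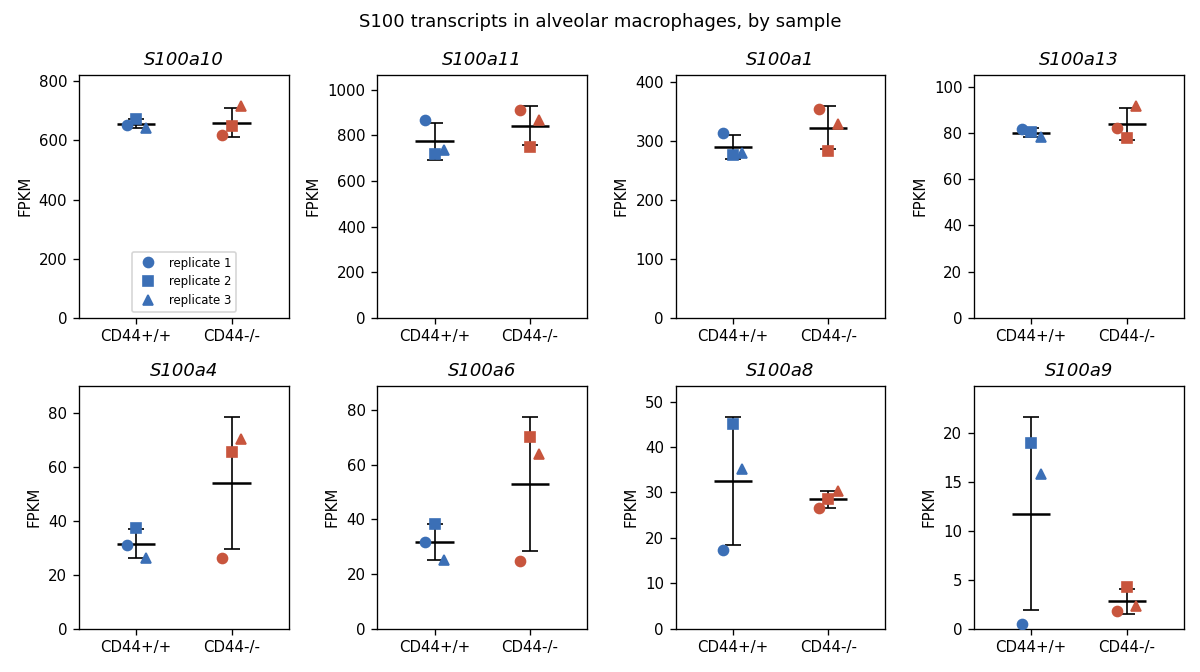
FPKM of the 8 S100 genes in each sample, in 1 panel per gene with its own axis. Symbols are replicates 1, 2 and 3, horizontal bars are means and error bars are SD (n = 3). In the lower row CD44-/- replicate 1 lies below the other CD44-/- samples for S100a4 and S100a6, and CD44+/+ replicate 1 lies below the other CD44+/+ samples for S100a8 and S100a9.

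The other 4 genes form neighbouring pairs along the chromosome, and each pair varied together. Their start sites are shown because the members of each pair moved together. Each window runs from 60 bases before the RefSeq start to its first 50 bases (GRCm38.p6), on the strand of the gene, and capitals mark TATAAA, the core of the TATA box. S100a4 (chr3:90603710-90603819, plus strand), S100a6 (chr3:90612834-90612943, plus strand), S100a8 (chr3:90669011-90669120, plus strand) and S100a9 (chr3:90695672-90695781, minus strand) read as follows.
S100a4: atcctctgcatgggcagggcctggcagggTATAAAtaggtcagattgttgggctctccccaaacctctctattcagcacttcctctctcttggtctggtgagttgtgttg
S100a6: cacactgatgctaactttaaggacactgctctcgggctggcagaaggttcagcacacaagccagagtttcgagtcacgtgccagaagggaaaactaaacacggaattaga
S100a8: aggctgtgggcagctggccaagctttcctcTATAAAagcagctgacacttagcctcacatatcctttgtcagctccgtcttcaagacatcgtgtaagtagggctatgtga
S100a9: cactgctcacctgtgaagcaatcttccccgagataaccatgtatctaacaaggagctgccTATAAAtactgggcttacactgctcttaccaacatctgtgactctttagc
TATAAA was searched on both strands. It stands 31 bases before the start in S100a4 and 30 bases before it in S100a8, in S100a9 its first letter falls on the annotated start itself, and these letters are not in the window of S100a6. Windows were matched for 7 of the 8 genes, S100a10 being the exception, and 3 of the 7 hold TATAAA, against 5.34% of all 32851 windows of this length. The match is a description of the letters and not of use by the cell.

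S100a4 and S100a6 varied together from sample to sample. S100A4, also called metastasin or fibroblast-specific protein, binds non-muscle myosin and acts in cell movement, and S100A6, or calcyclin, was named for its rise in cycling cells. S100a4 was at 31.0, 37.2 and 26.3 FPKM in CD44+/+ AMs and at 26.0, 65.5 and 70.5 FPKM in CD44-/- AMs. S100a6 was at 31.5, 38.2 and 25.0 FPKM in CD44+/+ AMs and at 24.7, 69.9 and 63.7 FPKM in CD44-/- AMs. For both genes CD44-/- replicates 2 and 3 lay above every CD44+/+ sample, whereas CD44-/- replicate 1 was the lowest of all 6 samples, close to CD44+/+ replicate 3, so the genotypes overlapped.

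Means of S100a4 were 31.5 ± 5.47 FPKM in CD44+/+ and 54.0 ± 24.4 FPKM in CD44-/- AMs (SD, n = 3 each), and those of S100a6 were 31.6 ± 6.60 and 52.8 ± 24.5 FPKM. The log2 fold change of S100a4 was 0.66 (95% interval -0.10 to 1.42, limma adjusted p = 0.722) and that of S100a6 was 0.62 (95% interval -0.18 to 1.43, limma adjusted p = 0.792). Without CD44-/- replicate 1 the log2 fold change of S100a4 was 1.12 (standard error 0.13) and passed the test (limma adjusted p = 0.0216), as did 0.204% of the 10791 genes tested in that comparison. S100a6 then had a log2 fold change of 1.10 (standard error 0.15) and stayed just short of the threshold (limma adjusted p = 0.0516).

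Within a sample the ratio of S100a4 to S100a6 stayed between 0.937 and 1.11. The log2 ratio differed by 0.04 between the genotypes, beside SDs of 0.06 in CD44+/+ and 0.12 in CD44-/- AMs. The exact permutation test gave p = 0.6 (two-sided, the smallest p possible with 3 against 3 is 0.1). Pearson's r between the log2 levels of both genes over the 6 samples was 0.991, and since all 6 points share their libraries with each other gene, it is given as a description.

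Genes outside the family with the profile most like that of S100a4, by Pearson's r over the 6 samples, were Gsg2 (r = 0.993), 2810417H13Rik (r = 0.989) and H2afz (r = 0.989). Gsg2 encodes haspin, a kinase of mitotic chromosomes, 2810417H13Rik encodes a factor that binds PCNA at replication forks, and H2afz encodes a histone variant. H2afz was at 152, 156 and 151 FPKM in CD44+/+ AMs and at 151, 175 and 176 FPKM in CD44-/- AMs. Nearest to S100a6 were Ndc80 (r = 0.990), which encodes a kinetochore protein, Cgrrf1 (r = 0.990) and Siah1b (r = 0.981). Ndc80 was at 6.55, 7.29 and 6.01 FPKM in CD44+/+ AMs and at 6.23, 9.28 and 8.47 FPKM in CD44-/- AMs. H2afz and Ndc80, like S100a4 and S100a6, were highest in CD44-/- replicates 2 and 3, but over a smaller range. With 6 points, some genes out of 10800 will have a high r to any profile.

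S100a4 and S100a6 are also expressed by monocytes and fibroblasts. In bulk RNA, fewer cells of a type and less RNA per cell cannot be told apart. Of 12 monocyte markers in the table, Ccr2 was at 4.79, 4.73 and 4.31 FPKM in CD44+/+ AMs and at 4.43, 5.66 and 5.67 FPKM in CD44-/- AMs. Ms4a6c was at 27.3, 31.9 and 23.1 FPKM in CD44+/+ AMs and at 26.1, 33.3 and 33.6 FPKM in CD44-/- AMs. Both were thus highest in CD44-/- replicates 2 and 3. Ly6c2 did not exceed 0.263 FPKM in any sample, and the summed level of the list, mostly Fn1, was 343 to 461 FPKM in CD44+/+ and 259 to 339 FPKM in CD44-/- AMs. The 6 fibroblast markers together reached at most 0.276 FPKM. The part of monocytes in the levels of S100a4 and S100a6 was not tested.

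S100a8 and S100a9 varied together as well, but over very different ranges. S100a8 was at 17.2, 45.0 and 35.1 FPKM in CD44+/+ AMs and at 26.5, 28.6 and 30.2 FPKM in CD44-/- AMs. S100a9 was at 0.493, 18.9 and 15.8 FPKM in CD44+/+ AMs and at 1.80, 4.20 and 2.31 FPKM in CD44-/- AMs. CD44+/+ replicate 1 had the lowest value of both genes, below every CD44-/- sample, and CD44+/+ replicates 2 and 3 had the highest, above every CD44-/- sample. The CD44+/+ samples thus enclosed the CD44-/- samples from both sides.

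Means of S100a8 were 32.4 ± 14.1 FPKM in CD44+/+ and 28.4 ± 1.86 FPKM in CD44-/- AMs (SD, n = 3 each), a log2 fold change of -0.08 (95% interval -0.75 to 0.58, limma adjusted p = 0.989). Means of S100a9 were 11.7 ± 9.86 and 2.77 ± 1.26 FPKM (SD, n = 3 each), so that the CD44-/- mean was 0.236 times the CD44+/+ mean, but the log2 fold change was -1.06 with a 95% interval of -3.67 to 1.55 (limma adjusted p = 0.944). This interval includes both lower and higher levels in CD44-/- AMs. Without CD44+/+ replicate 1 the log2 fold change of S100a9 was -2.69 (standard error 0.30) and passed the test (limma adjusted p = 0.0209), as did 0.333% of the 10805 genes tested in that comparison. Without CD44+/+ replicate 2 it was -0.18, and without CD44+/+ replicate 3 it was -0.32. S100a8 did not pass in any of these comparisons, with a log2 fold change of -0.48 (limma adjusted p = 0.148) without CD44+/+ replicate 1 and 0.21 and 0.03, in the opposite direction, without replicates 2 and 3.

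S100a9 was below S100a8 in every sample, by an amount that varied widely. The ratio of S100a9 to S100a8 was 0.0287, 0.421 and 0.449 in CD44+/+ AMs and 0.0679, 0.147 and 0.0765 in CD44-/- AMs. The mean log2 ratio was lower by 0.98 in CD44-/- AMs (-3.40 against -2.42), beside SDs of 2.12 in CD44+/+ and 0.58 in CD44-/- AMs. The exact permutation test gave p = 0.4 (two-sided, smallest p possible 0.1). S100a9 thus varied more between samples than S100a8, and the levels of both transcripts were not in a fixed proportion, although the proteins pair. Pearson's r between the log2 levels over the 6 samples was 0.939.

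Neutrophils carry very high levels of both transcripts. Beside the 4 granule genes listed at 0 in every sample, several other neutrophil markers of low level had their lowest value in CD44+/+ replicate 1, alone or tied. The share of all genes lowest in that sample was not computed, so these markers are given as a description. Lcn2, the gene of lipocalin 2, was at 0.235, 1.46 and 1.62 FPKM in CD44+/+ AMs and at 0.555, 1.27 and 0.871 FPKM in CD44-/- AMs. Retnlg, a resistin-like gene of mature neutrophils, was at 0.128, 1.02 and 1.54 FPKM in CD44+/+ AMs and at 0, 0.708 and 0.248 FPKM in CD44-/- AMs. Mmp9, the gene of gelatinase B, was at 0.0842, 0.714 and 0.944 FPKM in CD44+/+ AMs and at 0.478, 0.393 and 0.304 FPKM in CD44-/- AMs. These genes were low in CD44+/+ replicate 1 and high in CD44+/+ replicates 2 and 3, as S100a9 was. Csf3r, Cxcr2, Mmp8 and Trem1 did not have this order. Ltf was at 28.7, 87.3 and 37.2 FPKM in CD44+/+ AMs and at 23.1, 33.8 and 15.2 FPKM in CD44-/- AMs. Its lowest value was thus in CD44-/- replicate 3. The summed level of the list, mostly Ltf, Mmp8 and Trem1, was 101 to 153 FPKM in CD44+/+ and 93.5 to 105 FPKM in CD44-/- AMs. The part of neutrophils in the levels of S100a8 and S100a9 was not tested.

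The genes nearest to S100a9 were Cxcl3 (r = 0.998), Icam1 (r = 0.996) and Pirb (r = 0.989). Cxcl3, a chemokine that attracts neutrophils, was at 1.93, 14.3 and 12.4 FPKM in CD44+/+ AMs and at 3.40, 5.86 and 4.07 FPKM in CD44-/- AMs. Icam1, the adhesion ligand of leukocyte integrins, was at 53.7, 72.3 and 70.8 FPKM in CD44+/+ AMs and at 59.3, 63.6 and 62.0 FPKM in CD44-/- AMs. Cxcl3 had the same order of samples as S100a9, including its lowest value in CD44+/+ replicate 1. Among the genes nearest to S100a8 were Hp (r = 0.998), the gene of haptoglobin, and Manbal (r = 0.975). Hp was at 2.70, 7.56 and 5.65 FPKM in CD44+/+ AMs and at 4.25, 4.81 and 5.04 FPKM in CD44-/- AMs, again with the CD44-/- samples inside the range of the CD44+/+ samples. Cxcl3 and Hp were picked by r over these same samples, so their likeness to S100a9 and S100a8 follows from the choice and is no separate result.

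**Figure D3:**
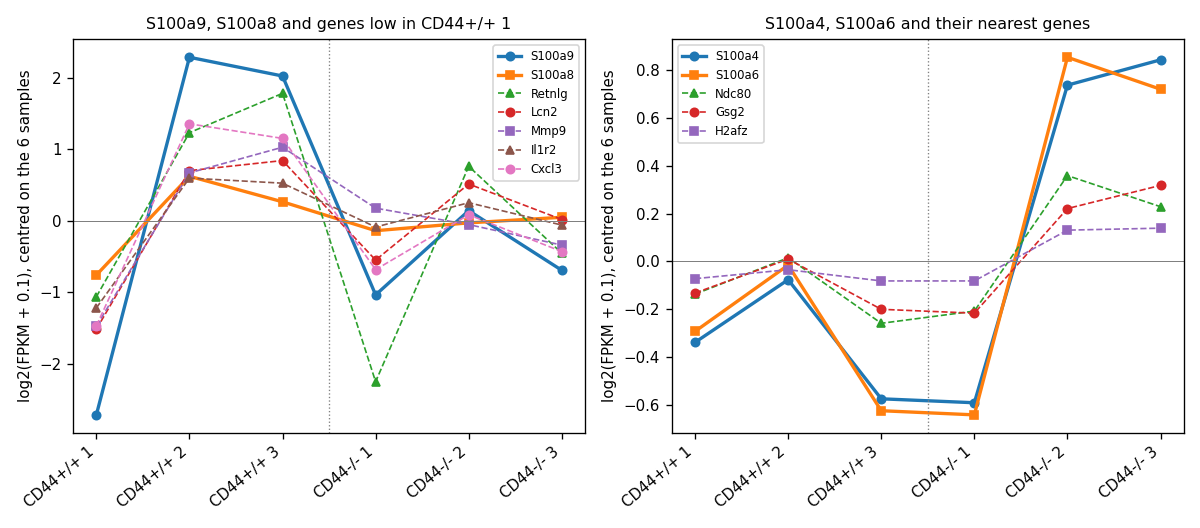
Levels of S100a9 and S100a8 with Retnlg, Lcn2, Mmp9, Il1r2 and Cxcl3 (left) and of S100a4 and S100a6 with Ndc80, Gsg2 and H2afz (right) in the 6 samples, as log2(FPKM + 0.1) centred on the mean of each gene. Left, S100a9 at 0.493 FPKM in CD44+/+ replicate 1 is the lowest point, and S100a8 also has its lowest value there, over a smaller range. Right, all 5 genes are highest in CD44-/- replicates 2 and 3. Cxcl3, Ndc80, Gsg2 and H2afz were picked for a high r to an S100 gene over these samples, and the neutrophil markers after their values were seen.

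S100a10 had its lowest value in CD44-/- replicate 1 and its highest in CD44-/- replicate 3, and Pearson's r to S100a4 was 0.690 and to S100a6 0.637, over a much smaller range of levels. Genes nearest to S100a10 were Ctsa (r = 0.994), the gene of the lysosomal protease cathepsin A, Emp3 (r = 0.975) and Snrpf (r = 0.972), and those nearest to S100a11 were Cdc42ep4 (r = 0.999), Rbbp5 (r = 0.997) and Zscan22 (r = 0.988). S100a11 went with S100a1 (r = 0.969), with both highest in CD44-/- replicate 1 and lowest in CD44+/+ replicate 2. To S100a9 it ran in the opposite direction (r = -0.848). These correlations are over 6 samples that share their libraries and scaling between genes.

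Of the 8 S100 genes, none passed an adjusted p under 0.05, against 0.111% of the 10800 genes tested with limma. None had an unadjusted p under 0.05 either, against 7.69% of all genes, and none had groups that did not overlap, against 11.6% of all genes. The mean log2 difference was positive for 6 and negative for 2, with a median of 0.09 beside a median of 0.01 over all genes, and the sign for S100a10 was negative after median-ratio scaling. S100a9 had a residual SD of 2.04 on the log2 scale, and 0.259% of the genes tested had a larger one. For S100a6, S100a4 and S100a8 the residual SD was 0.62, 0.59 and 0.51, and 1.43%, 1.56% and 2.27% of genes had a larger one. Their 95% intervals are wide for the same reason.

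Leaving out a single sample moved these counts. Without CD44+/+ replicate 1, the genotypes no longer overlapped for S100a1, S100a8, S100a9 and S100a11, against 30.3% of all genes. Without CD44-/- replicate 1 they no longer overlapped for S100a4 and S100a6, against 23.1% of all genes. Without CD44-/- replicate 2 this was so for S100a1 and S100a13, against 18.3% of all genes.

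**Figure D4:**
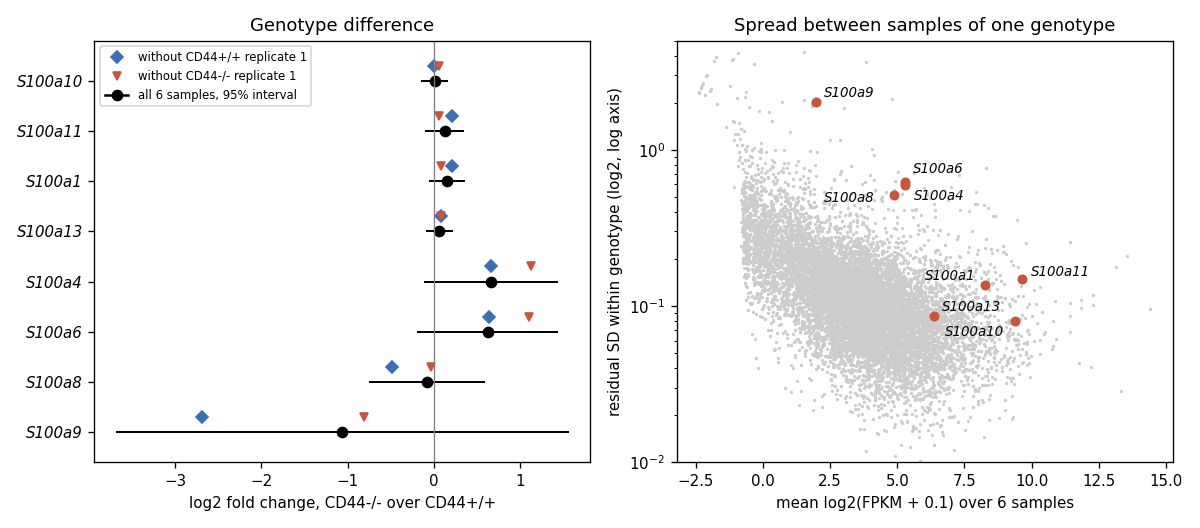
Left, log2 fold change of CD44-/- over CD44+/+ for the 8 S100 genes with its 95% interval from limma (circles, 6 samples), and its value without CD44+/+ replicate 1 (diamonds) or without CD44-/- replicate 1 (triangles). Right, residual SD within a genotype (log axis) against the mean level for all 10800 genes tested (grey) with the 8 S100 genes in red. S100a9, at 2.04, lies above nearly all genes tested, and S100a10, S100a11, S100a1 and S100a13 lie within the cloud.

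Transcripts of proteins to which S100 proteins bind did not pass the test between the genotypes. Of 16 genes for such partners, 15 were tested and Plg, the gene of plasminogen, which is made in liver, was listed at 0 in every sample. None passed an adjusted p under 0.05, against 0.111% of all genes, and the log2 differences lay between -0.13 and 0.14 with a median of -0.01. Anxa2, the partner of S100A10, was at 1793 ± 72.3 FPKM in CD44+/+ and 1803 ± 66.6 FPKM in CD44-/- AMs (SD, n = 3 each; log2 fold change 0.01, limma adjusted p = 0.989). The ratio of S100a10 to Anxa2 kept between 0.349 and 0.380 in all 6 samples. Anxa1, the partner of S100A11, was at 474 ± 41.5 and 469 ± 13.1 FPKM (SD, n = 3 each), and the ratio of S100a11 to Anxa1 lay between 1.51 and 1.91. Myh9, which encodes the myosin heavy chain bound by S100A4, was at 414 ± 24.7 and 411 ± 12.2 FPKM (SD, n = 3 each).

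For 3 of the 15 partners the genotypes did not overlap, beside 11.6% of all genes tested, and none of these passed the adjusted threshold. Cacybp, which encodes the calcyclin-binding protein of S100A6, was at 39.0 ± 0.874 FPKM in CD44+/+ and 35.6 ± 1.91 FPKM in CD44-/- AMs (SD, n = 3 each; limma adjusted p = 0.642). Plaur, the urokinase receptor, was at 225 ± 5.0 and 249 ± 16.7 FPKM (SD, n = 3 each; limma adjusted p = 0.593), and Anxa11 was at 72.2 ± 1.21 and 69.3 ± 2.09 FPKM (SD, n = 3 each; limma adjusted p = 0.891). Sizes of these differences were at most 0.14 on the log2 scale.

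Receptors and effectors of released S100 proteins likewise gave no call. All 15 were tested, none passed an adjusted p under 0.05, against 0.111% of all genes, and the median log2 difference was 0.02. For 3 of the 15, Ly96, Ager and Cybb, the genotypes did not overlap, beside 11.6% of all genes. Tlr4, a receptor of S100A8 and S100A9, was at 53.6 ± 5.38 FPKM in CD44+/+ and 58.7 ± 1.78 FPKM in CD44-/- AMs (SD, n = 3 each; limma adjusted p = 0.765). Ly96, the gene of its co-receptor MD-2, was at 14.2 ± 0.890 and 15.8 ± 0.297 FPKM with no overlap (SD, n = 3 each; limma adjusted p = 0.633). Ager, the gene of RAGE, was at 0.937, 0.952 and 1.16 FPKM in CD44+/+ AMs and at 2.50, 1.39 and 1.49 FPKM in CD44-/- AMs. Each CD44-/- sample lay above each CD44+/+ sample at this low level, and the log2 fold change was 0.72 (limma adjusted p = 0.476). Ager is also a marker of alveolar type 1 cells, and the summed level of 6 such markers was 15.5 to 19.9 FPKM in CD44+/+ and 20.7 to 22.0 FPKM in CD44-/- AMs with Ager included. Pdpn, with means of 9.01 and 12.1 FPKM, had the highest level of the list. Emp2 did not overlap either, at 0.587 to 0.606 FPKM in CD44+/+ and 0.685 to 0.877 FPKM in CD44-/- AMs, whereas Hopx (5.33 and 4.91 FPKM) and Aqp5 (2.16 and 1.85 FPKM) had lower means in CD44-/- AMs. Without Ager the sums overlapped, at 14.6 to 18.7 and 18.2 to 20.6 FPKM. The part of these cells in the level of Ager was not tested.

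Among the subunits of the phagocyte NADPH oxidase, to which calprotectin delivers arachidonic acid, Cybb was at 624 ± 33.9 FPKM in CD44+/+ and 552 ± 24.0 FPKM in CD44-/- AMs (SD, n = 3 each) with no overlap (log2 fold change -0.17, limma adjusted p = 0.489). Cyba was at 916 ± 35.7 and 911 ± 38.9 FPKM, and Ncf1 and Ncf4 overlapped between the genotypes. Cd36, a fatty acid and lipoprotein receptor that takes up S100A8 and S100A9 with their lipid load, was at 165 ± 16.7 and 141 ± 21.4 FPKM (SD, n = 3 each; log2 fold change -0.23, limma adjusted p = 0.694).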

How the data were processed

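The series holds 3 RNA samples of CD44+/+ AMs and 3 of CD44-/- AMs, grouped and numbered by their labels. Per the labels, STAR, Cufflinks and Cuffdiff were used with the mouse genome mm10. The authors deposited FPKM values from Cufflinks, normalized for transcript length and mapped fragments. The number of reads was not used here. Relative depth was taken from the steps between values under 0.05 FPKM, so counting error cannot be stated. Columns with the authors' group means, Cuffdiff fold changes, test statistics, p-values and q-values were not used for results. The columns of gene name and position follow another order than the gene identifiers (0 rows match), while the per-sample values follow the identifiers: their mean was within 5% of the authors' mean in the same row for 100.0% (CD44+/+) and 99.9% (CD44-/-) of genes over 1 FPKM. Positions were therefore looked up by gene name and counted from 1. Of 24341 genes, 1 lacked a value in a sample and was left out, and 101 identifiers with more than 1 name were kept as single genes.

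The 10800 genes averaging 0.5 FPKM or more were compared on log2(FPKM + 0.1) with limma 3.58.1 in R 4.3.3 (lmFit, eBayes with an intensity trend, two-sided, Benjamini-Hochberg over all genes tested, threshold 0.05). Fold changes are on this scale, where the added constant can shift those of low genes. Ratios and single genes were also compared by exact permutation tests over all 20 splits with SciPy 1.17.1. The comparison was tested on simulated data. The S100 genes, the lists and the markers were chosen with earlier results of these data known. Genes named are the S100 genes, the listed partners, receptors and effectors, Cd44, the 3 genes nearest in Pearson's r to each of S100a4, S100a6, S100a8, S100a9, S100a10 and S100a11, and cell type markers. Values of a few such genes are not reported here. Single markers given per sample were picked after their values were seen. Promoter windows came from RefSeq (GRCm38.p6), and gene models from GENCODE release M21.

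Same-numbered samples of both genotypes share only a number in the labels. Correlations of their deviations from the group means were 0.212, 0.132 and 0.211 for replicates 1, 2 and 3, and between -0.195 and 0.0251 for other pairings, so the replicate number was also fitted as a block. Other alternatives were robust eBayes or eBayes with no trend, quantile normalization or median-ratio scaling, a minimum mean of 1 FPKM or no minimum, a pseudocount of 0.01 or 1, and the omission of each sample in turn.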

Additional observations from a re-analysis of the deposited data

How the results depend on the processing

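The count of S100 genes past the threshold was 0 of 8 under every alternative that kept all 6 samples, including the replicate block, with which 9 genes in all passed in place of 12 and no S100 call changed. Leaving out 1 sample gave 0 to 1 S100 genes past the threshold (S100a9 without CD44+/+ replicate 1, S100a4 without CD44-/- replicate 1), 0 to 4 with no overlap, and 6 to 36 genes in all. With no filter 7 genes in all passed. Of 149 alternative values for single S100 genes, 141 kept their direction and their side of the threshold, 2 came to pass it and 6 turned direction. Those 6 were S100a8 without CD44+/+ replicate 2 (0.21) or replicate 3 (0.03), with a range of -0.48 to 0.21 over the samples left out, S100a10 after median-ratio scaling (-0.0098) and without either replicate 3 (-0.011 for CD44+/+ and -0.054 for CD44-/-, in a range of -0.054 to 0.051), and S100a13 without CD44-/- replicate 3 (-0.0029, in a range up to 0.11). With each sample left out, the difference in log2 ratio ranged from -2.20 to -0.34 for S100a9 to S100a8 and from -0.01 to 0.11 for S100a4 to S100a6, the lowest being -0.0139 without CD44-/- replicate 3. The cause was not tested. Pools differ in size, and the depth is unknown.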
